A study of Drosophila melanogaster with 12 samples.

Results

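The map described here is that of RNA polymerase II (Pol II) on the chromatin of mock-treated Kc167 cells, which derive from female embryos of Drosophila melanogaster and have hemocyte character. Mock cells were put through nucleofection with neither dsRNA nor siRNA, grown in CCM3 medium at 25 °C and collected 3 days later. Chromatin immunoprecipitation (ChIP) with the antibody 8WG16 was made in 2 libraries, mock replicates 1 and 2, each with its own input, among 12 samples in all. The labels do not say whether the replicates came from separate cultures. The list of mock replicate 1 held 5965 peaks and that of mock replicate 2 held 5601. Regions where peaks of both lists overlapped by at least 1 bp were taken as the map, which gave 5344 shared regions. Each peak was ranked within its own list by the −log10 q of the peak caller, the evidence for enrichment over input, and shared regions were ordered by the mean of both ranks. A percentile rank of 0 stands for the strongest peak of a list and 100 for the weakest. With 1 group of 2 libraries no test was run, and all values describe these libraries.

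Pol II is recruited to a transcription start site (TSS) with its C-terminal tail largely unphosphorylated, the form that 8WG16 recognises. The tail is phosphorylated as the enzyme initiates, and at many Drosophila genes Pol II then halts shortly downstream of the TSS until a kinase releases it into elongation. A peak of 8WG16 at a gene start marks the presence of polymerase there and does not by itself give the rate of transcription.

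Promoter sequences were set beside the ranks, because core promoter elements differ between classes of Drosophila genes. The 6 motifs searched, on both strands, were TATAAA, the letters of the TATA box, TCAGT, the core of the initiator found at the TSS of many regulated genes, TATCGATA, the DRE bound by the factor Dref, GGTCACAC, the core of motif 1 bound by M1BP, CAGCTG, an E-box, and GAGAGAG, a repeat bound by the GAGA factor that Trl encodes. TATCGATA and CAGCTG read the same on both strands, and TCAGT on the opposite strand can share bases with the end of GGTCACAC. The sequences run from 120 bp before the TSS to 10 bp from it, 5′ to 3′ on the strand of the gene, with matches in capitals, and were read from RefSeq Release 6 of the genome (dm6). The first 3 are shown because they belong to the 3 leading regions, and the next 2 because they belong to leading regions and hold a GAGA repeat. The TSS is base 1, and the base before it is −1.
CG31075 (chr3R:26988508-26988637, − strand): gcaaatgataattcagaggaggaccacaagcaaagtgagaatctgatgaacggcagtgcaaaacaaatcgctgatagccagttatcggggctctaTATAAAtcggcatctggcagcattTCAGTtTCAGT
Eip75B (chr3L:17961805-17961934, − strand): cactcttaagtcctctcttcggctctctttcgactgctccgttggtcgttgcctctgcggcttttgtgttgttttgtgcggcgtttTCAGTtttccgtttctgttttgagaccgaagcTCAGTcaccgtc
raw (chr2L:8735788-8735917, − strand): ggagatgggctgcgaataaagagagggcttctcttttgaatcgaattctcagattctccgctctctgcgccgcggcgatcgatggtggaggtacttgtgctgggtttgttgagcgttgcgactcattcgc
Aldh7A1 (chr3L:19268904-19269033, − strand): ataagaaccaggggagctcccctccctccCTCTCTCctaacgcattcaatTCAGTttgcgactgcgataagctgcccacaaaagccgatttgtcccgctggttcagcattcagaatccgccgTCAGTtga
mld (chr3R:24589042-24589171, + strand): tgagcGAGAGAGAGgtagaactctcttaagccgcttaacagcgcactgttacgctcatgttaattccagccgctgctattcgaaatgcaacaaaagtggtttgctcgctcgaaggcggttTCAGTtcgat
CG31075 had both a TATA box starting at −25 and a TCAGT starting at −1, Eip75B had a TCAGT at −2, Aldh7A1 at 3 and mld at 1, and raw had none of the 6 motifs in this stretch.

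For contrast, eIF4A and Act5C lie in the widest shared regions, while mRpL22, GlnRS and ND-B17 carry the DRE or the core of motif 1.
eIF4A (chr2L:5981644-5981773, + strand): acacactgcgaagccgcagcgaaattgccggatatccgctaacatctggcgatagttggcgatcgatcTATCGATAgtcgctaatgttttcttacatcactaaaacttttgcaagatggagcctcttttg
Act5C (chrX:5901862-5901991, + strand): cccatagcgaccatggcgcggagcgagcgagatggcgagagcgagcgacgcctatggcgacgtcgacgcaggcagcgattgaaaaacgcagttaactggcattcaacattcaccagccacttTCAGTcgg
mRpL22 (chrX:16783813-16783942, + strand): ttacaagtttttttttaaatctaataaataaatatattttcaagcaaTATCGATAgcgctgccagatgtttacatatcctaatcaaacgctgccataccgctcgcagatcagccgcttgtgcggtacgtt
GlnRS (chr3R:25265712-25265841, − strand): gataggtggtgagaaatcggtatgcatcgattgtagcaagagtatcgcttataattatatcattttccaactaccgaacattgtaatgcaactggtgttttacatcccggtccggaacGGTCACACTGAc
ND-B17 (chr2L:15751069-15751198, − strand): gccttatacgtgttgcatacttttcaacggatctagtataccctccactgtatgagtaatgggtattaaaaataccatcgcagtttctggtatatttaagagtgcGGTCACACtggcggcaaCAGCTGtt
The DRE of eIF4A started at −52 and that of mRpL22 at −73, whereas the core of motif 1 started at −2 in GlnRS and at −15 in ND-B17. In mock replicates 1 and 2 the start peaks ranked 1444 and 1503 (eIF4A), 1404 and 1228 (Act5C) and 1373 and 1502 (mRpL22). Those of GlnRS ranked 1989 and 2211, and those of ND-B17 2613 and 2562. The promoters printed first were chosen from leading regions, so the difference in rank follows from the choice.

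The lists agreed closely at the top and parted at the bottom. Of the peaks of mock replicate 1, 5372 (90.1%, 95% Wilson interval 89.3 to 90.8) were overlapped by a peak of mock replicate 2, and 5449 of mock replicate 2 (97.3%, 96.8 to 97.7) by a peak of mock replicate 1. These intervals, like those that follow, cover counting error only. In the leading 5 deciles of each list the overlapped share was between 99.8% and 100%. In the last decile it was 38.7% in mock replicate 1 and 80.7% in mock replicate 2, so the longer list differed mainly by weak peaks. The 593 peaks of mock replicate 1 without a counterpart had a median width of 222 bp and a median −log10 q of 2.95, and the 152 of mock replicate 2 had 201 bp and 2.39. Over the shared regions Spearman's rho of the ranks was 0.947, that of the fold enrichments 0.869 and that of the covered bases 0.849 (n = 5344, across regions of the same libraries, given as a description). The bases covered by both lists were 0.725 of those covered by either, 3.27 Mb of 4.504 Mb. Of the 5344 shared regions mock replicate 1 gave the wider peak in 3731 and the higher fold enrichment in 3900 (73.0%). The numbers of reads are unknown from the lists, so these differences cannot be set against depth.

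**Figure D1:**
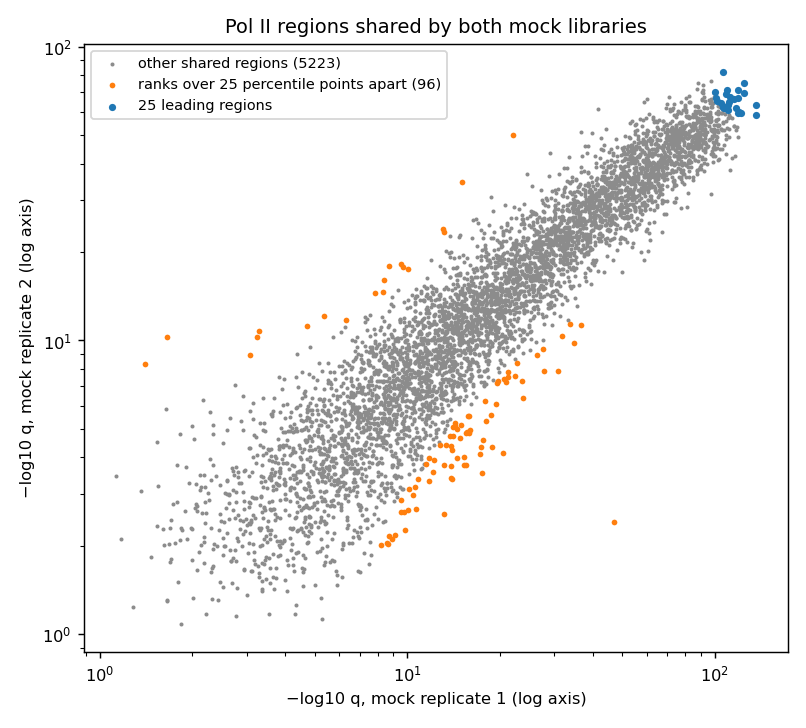
Each point is a shared region, with the −log10 q of mock replicate 1 on the horizontal and of mock replicate 2 on the vertical log axis. The 25 leading regions (blue) sit at 100.3 to 136 in mock replicate 1 and 58.7 to 82.2 in mock replicate 2, and the 96 regions whose ranks were over 25 percentile points apart (orange) lie off the band, most of them toward mock replicate 1.

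A few loci went against this agreement. The largest gap, 75.1 percentile points, was at the white (w) locus on chromosome X, which encodes an eye pigment transporter. The region spans the 3′ end of w and the start of CG32795, the nearest start. It ranked 1153 with a −log10 q of 46.8 and a width of 3634 bp in mock replicate 1, and ranked 5291 with 2.41 and 572 bp in mock replicate 2. The w promoter itself held the best peak of mock replicate 1 that had no counterpart, at chrX:2795960-2796821, with rank 1230 and a −log10 q of 44.5. The other gaps were at most 42.4 percentile points, as at Polr1H, a Pol I subunit gene with −log10 q of 20.5 in mock replicate 1 and 4.15 in mock replicate 2. The border cell factor gene slbo went the other way, with 1.65 and 10.3.

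The 25 leading regions all lay at gene starts. They were high and of middling width, with widths of 418 to 1189 bp and fold enrichments of 11.04 to 22.8 in mock replicate 1, and widths of 339 to 1103 bp and fold enrichments of 9.58 to 17.6 in mock replicate 2. CG31075 on 3R led, with rank 3 in both lists and −log10 q of 125 and 75.4. Eip75B, the ecdysone-induced nuclear receptor E75, followed with ranks 4 and 12 and −log10 q of 124 and 69.5. raw, a negative regulator of JNK signalling, ranked 10 and 9 with −log10 q of 118 and 71.1. MP1, a protease of the melanisation cascade, ranked 9 and 23, and CG5455 ranked 20 and 20. These 5 regions were near the top of both lists.

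The rest of the 25 lay at genes of various roles. Fas2, an immunoglobulin-type adhesion protein, ranked 32 and 8. Atet, an ABC transporter, ranked 17 and 25. Ptp10D, a receptor tyrosine phosphatase, ranked 36 and 15, and nkd, an inhibitor of Wnt signalling, 27 and 34. The pair-rule repressor gene hry (hairy) had the highest −log10 q of mock replicate 1, 136, but ranked 44 in mock replicate 2 with 63.4. Arc1, which encodes a capsid-forming protein, showed the reverse, with rank 45 and 106 in mock replicate 1 and rank 1 and 82.2 in mock replicate 2. The remaining leading regions lay at Fie with snRNA:U11, plum, inaE, Svil, Aldh7A1 with CG14085, Gip, GstT3, edl, mld, CG42238, cora, CG8547, lncRNA:CR46006 and Tsp66E with mfr. GstT3, Aldh7A1 and Gip are metabolic enzymes, whereas cora (coracle), Svil (supervillin) and Tsp66E (a tetraspanin) belong to junctions, the actin cortex and the membrane. No ribosomal protein, proteasome or respiratory gene was among them. Such genes were few on the whole map, so their absence from 25 regions tells little. Peaks of both lists lay at the starts of 6551 coding genes. Of these, 83 were cytosolic and 62 mitochondrial ribosomal protein genes, 33 proteasome genes and 62 genes of oxidative phosphorylation.

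Nearly all shared regions were at starts of annotated genes. Within 500 bp of a TSS lay 5066 of 5344 regions (94.8%, interval 94.2 to 95.4), while 82 (1.53%) lay in exons, 112 (2.096%) in introns and 84 (1.57%) between genes. Regions away from starts were weaker and narrower. Their median percentile rank was 74.9 in exons, 79.8 in introns and 73.0 between genes, against 45.4 at starts, and their median width was 343, 353 and 376 bp, against 563 bp. A single coding gene started at 3152 regions (59.0%), 2 coding genes at 1644 (30.8%) and 3 or more at 189 (3.54%). Regions with 2 starts had a median width of 912 bp, against 457 bp for those with 1, and stood lower in the order, with a median percentile rank of 49.9, against 41.3. Such a shared start peak cannot be assigned to 1 of the genes from these lists.

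Peaks were centred just downstream of the TSS. In the leading rank quintile of coding genes 82.2% were under a peak of both lists at 100 bp downstream of the canonical TSS, 81.8% at the TSS itself, 18.9% at 500 bp and 5.11% at 1000 bp downstream. In the last quintile the values were 75.5%, 55.0%, 6.26% and 2.44%. On the upstream side the order was another: at 500 bp before the TSS 26.9% of genes of the leading quintile were covered, against 42.6% and 41.8% in the next 2 quintiles. Regions with 2 or more coding starts were 19.5% of the leading quintile of regions and 44.6% of the middle quintile.

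**Figure D2:**
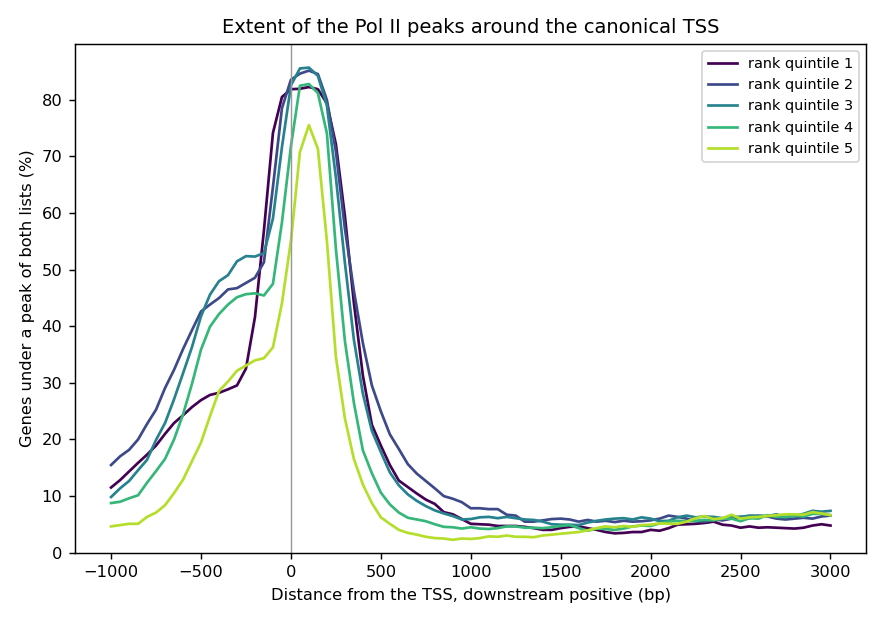
Percentage of protein-coding genes under a peak of both lists (vertical axis) by distance from the canonical TSS in bp (horizontal axis), for 5 rank quintiles of 1310 genes each. All 5 curves reach their maximum 100 bp downstream of the TSS, between 75.5% and 85.6%, and the leading quintile lies lowest of the first 4 at 500 bp upstream.

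Width and rank were different properties of a region. Of the regions, 830 were up to 300 bp wide, 2116 were above 300 and up to 600 bp, 1302 up to 1000 bp, 952 up to 2000 bp and 144 were above 2000 bp. The narrowest class was the weakest, with a median percentile rank of 77.7 and 1 region in the leading quintile. In the other classes the median percentile rank was 43.4, 41.3, 35.5 and 31.4, from narrow to wide. The leading 100 regions nevertheless came from the middle widths: 56 were above 300 and up to 600 bp wide, 40 up to 1000 bp, 4 up to 2000 bp and 0 were wider. The −log10 q of a broad peak is a mean over its length, and the part of this averaging in the widths of the leading regions was not tested.

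The 10 widest regions lay at genes of abundant cytoplasmic proteins and chaperones. The widest, on X, spanned sta (a ribosomal protein of the small subunit), Rab27, inc, mei-38 and rush, with 6842 and 7601 covered bases in mock replicates 1 and 2, and stood only 2000th in the order. Hsp83, the Drosophila Hsp90, lay in a region with 7461 and 6875 covered bases, and its 4091 bp body was covered over 100% in both lists. The region of chic (profilin) and eIF4A (a helicase of translation initiation) had 6631 and 7051 covered bases, and that of Hsp22, Hsp26, Hsp67Bc and CG4456 had 5578 and 5469. The other 6 lay at Pgk (phosphoglycerate kinase) with Bacc, Act5C (cytoplasmic actin), Hsc70-4 (a constitutive Hsp70) with tefu, RpLP0, DnaJ-1 (an Hsp40) with Usp47, and alphaTub84B with Tailor. Over the whole annotation 331 coding genes had over 50% of their body covered in both lists, 146 of them at least 1000 bp long. Hsp68, RpS9, sta, RpL14 and RpL10Ab, which are between 1361 and 2231 bp long, were covered over 100% in both lists.

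About as many coding genes had a start peak as lacked one. A peak in both lists within 500 bp of a TSS was found for 6551 of 13968 protein-coding genes (46.9%), which is the background for the counts of coding gene groups below. In 1 list only it was found for 468 (3.35%), and 6949 (49.7%) had none, of which 6770 had no peak anywhere on their body either. Genes with a start peak in both lists were longer, with a median of 3037 bp against 1591 bp without one. Length went with rank as well. The median was 7790 bp in the leading quintile and 3394, 2706, 2515 and 2214 bp in the following quintiles. Genes with a single exon made up 4.05% of the leading quintile, 8.02% of the last and 19.6% of the genes without a start peak. Genes with 2 or more TSSs, which have more chances of a start peak, made up 54.0%, 25.7% and 16.5%. The median percentile rank over all 6551 genes was 46.4, the reference for the ranks of gene groups.

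**Figure D3:**
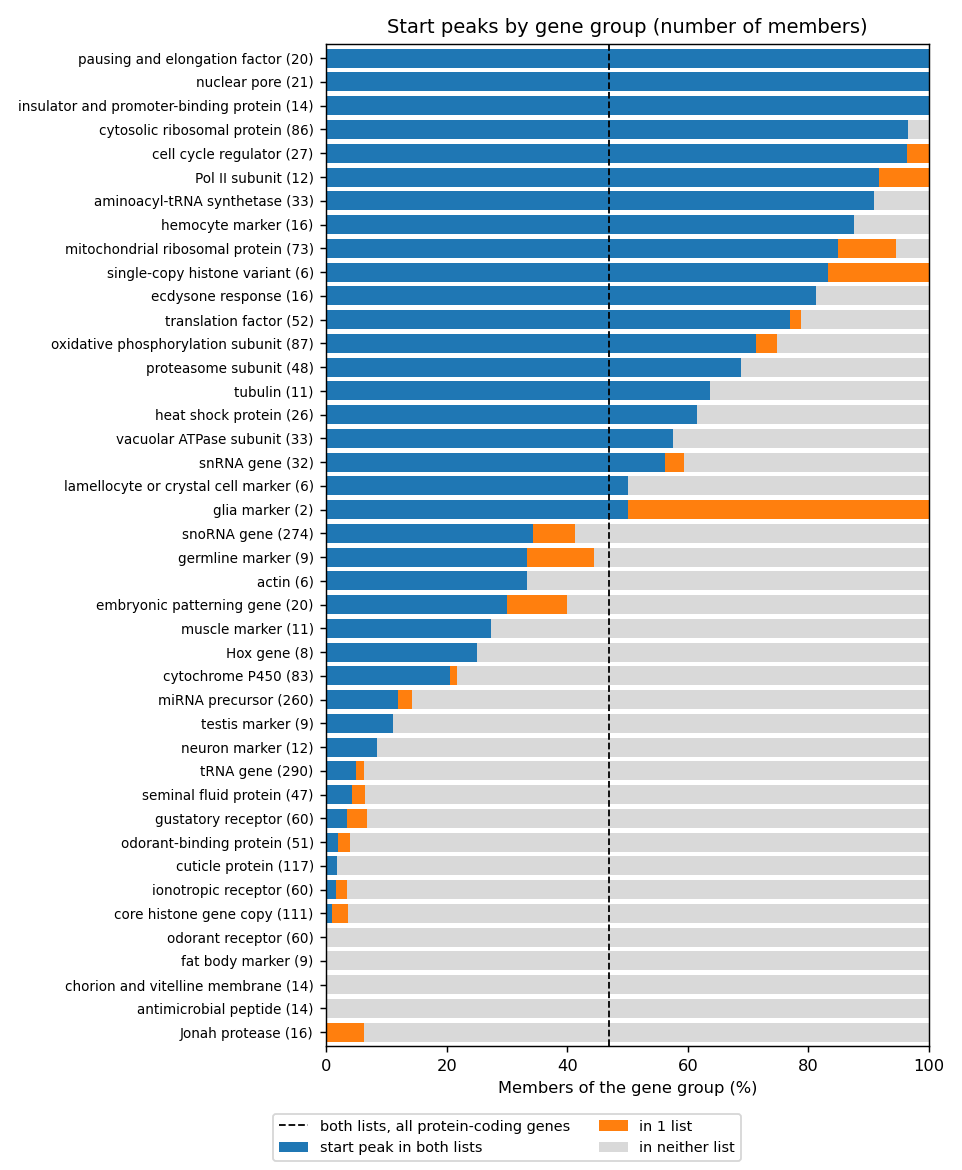
Bars give, for 42 gene groups with their number of members in brackets, the percentage of members with a start peak in both lists (blue), in 1 list (orange) and in neither (grey). The dashed line marks the 46.9% of all protein-coding genes, also beside the groups of noncoding genes. In 20 groups the blue bar passes that line, from nuclear pore genes at 100% to glia markers at 50%, and in 5 groups it is 0.

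Genes of protein synthesis mostly had a start peak, and cytosolic ribosomal protein genes nearly all. Of 86 cytosolic ribosomal protein genes 83 (96.5%) had a start peak in both lists, against 46.9% of all coding genes, and the 3 without one were RpL10Aa, RpS5b and RpS10a, each a second copy of another ribosomal protein gene. Their median percentile rank was 35.2 against 46.4 of all coding genes, and their peaks were wide, with medians of 1469 and 1316 bp against 730 and 621 bp. RpS28b led with −log10 q of 52.8 and 55.0, followed by RpL26 with 54.9 and 51.7 and RpS28a with 72.5 and 36.0. Of the 83 peaks, 52 had their middle nearest to the start of the ribosomal protein gene itself and 31 nearest to another start. Translation factors had a start peak in 40 of 52 (76.9%), with 11 lacking one in either list, led by eEF1alpha1, the elongation factor that brings tRNA to the ribosome, with −log10 q of 74.6 and 51.1, then eIF4G2 and eIF3a. The peak of eEF1alpha1 was nearest to the start of ERp60 and that of eIF4G2 to CG33111. Of the 33 aminoacyl-tRNA synthetase genes 30 had one, led by ArgRS-m, IleRS and HisRS, whose peaks were nearest to the starts of CG17816, Hem and Bx. The 3 without one, GluRS-m, MetRS-m and ValRS-m, all serve mitochondria.

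Mitochondrial genes were mostly occupied but weaker. A start peak in both lists was present at 62 of 73 mitochondrial ribosomal protein genes (84.9%) and at 62 of 87 genes of oxidative phosphorylation (71.3%). Their median percentile ranks were 62.2 and 55.5, both behind the 46.4 of all coding genes. mRpL34 led the first group with −log10 q of 47.8 and 35.4, from a peak whose middle was nearest to the start of Dg, and mRpS6 followed from a peak nearest to Cip4. mRpL22, printed above with its DRE, came next with −log10 q of 40.4 and 25.6 from its own start. ATPsynC, the rotor subunit of ATP synthase, led the second with 60.8 and 42.8, then COX8, from a peak nearest to VhaM9.7-b, and COX6B. Of the 62 mitochondrial ribosomal peaks 31 were nearest to another gene's start. mRpL10, mRpS5, mRpS9 and mRpS33 had no start peak in either list.

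In the proteasome and in oxidative phosphorylation, most copies of a subunit gene that carry a suffix were not among the genes with a start peak in both lists, a split made after the values had been seen. Of 16 proteasome genes with a name ending in R or T, with or without a number after it, 2 had one. Of 32 with a plain name 31 had one, and Prosalpha1 was the exception. Prosalpha1R had none either. The authors removed reads that map to several places, and the part of that filter in these counts was not tested. Prosbeta7 led the proteasome genes with −log10 q of 61.4 and 37.0, then Rpn9 and, from a peak nearest to Slbp, Rpn2. Among genes of oxidative phosphorylation 3 of 25 with a name ending in L, with or without a number after it, had one, against 59 of 62 others. Of 33 vacuolar ATPase genes 19 (57.6%) had a start peak in both lists, against 46.9% of all coding genes. Vha68-2, a catalytic subunit of this proton pump, led with −log10 q of 70.2 and 44.0, followed by Vha16-1 and Vha100-2. Many extra copies of such subunit genes in Drosophila are known for expression in testis. Testis expression of the copies counted here was not examined, and its part in these counts was not tested. In the testis marker list 1 of 9 genes, mia, had a start peak in both lists, at a percentile rank of 82.7.

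The transcription machinery was itself on the map, at middling to low ranks. All 20 matched genes of pausing and elongation had a start peak in both lists, with a median percentile rank of 49.3. lilli, a scaffold of the super elongation complex, led with −log10 q of 64.7 and 44.5, then atms (Paf1) with 54.8 and 35.9 and Trl (GAGA factor) with 36.6 and 37.3. The genes of the complex that holds paused Pol II were weaker: Nelf-A had 15.3 and 16.3, Nelf-E 12.7 and 9.48, NELF-B 8.11 and 9.71, and TH1 9.02 and 6.96. Cdk9, the kinase of pause release, had 8.32 and 4.63, and Spt5 stood last of the 20 with 3.29 and 1.62. Of the 20 peaks 8 were nearest to another start, among them those of lilli (NTPase), Nelf-E (snoRNA:U49:66Db), TH1 (mei-41), Cdk9 (bonsai) and Spt5 (Fak). Of 12 Pol II subunit genes 11 had a start peak in both lists, led by Polr2A, the largest subunit and the target of 8WG16, with 56.7 and 31.2, then Polr2F and, from a peak nearest to PolG2, Polr2C. Of these 11 peaks 5 were nearest to another start. Polr2K had one in 1 list.

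Genes of architectural proteins and of the cell cycle were also occupied throughout. All 14 insulator and promoter-binding genes had a start peak in both lists, with a median percentile rank of 63.8. mod(mdg4) led with −log10 q of 57.03 and 32.6, followed by Trl and pita, and CTCF was weakest with 3.74 and 1.69. Dref and M1BP, whose products bind the DRE and motif 1, had 14.1 and 12.9, and 6.42 and 4.68, from peaks nearest to RpL13 and CG8202. All 21 nuclear pore genes had one, with Nup93-1, Nup98-96 and Nup35 first, and 11 of these peaks were nearest to another start. Of 27 cell cycle genes 26 had one in both lists and Cdk4 had one in 1 list. stg (string), the Cdc25 phosphatase that drives entry into mitosis, led with 98.5 and 47.3, far ahead of CycB3 with 54.5 and 43.4 and E2f1 with 54.9 and 27.7. The replication helicase gene Mcm7 was the weakest with 8.23 and 2.02.

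The labelled cell type was checked against marker genes. Of 16 hemocyte markers 14 had a start peak in both lists (87.5%, against 46.9% of all coding genes), with a median percentile rank of 14.7 against 46.4. Pvr, the receptor for PDGF- and VEGF-like ligands, led with −log10 q of 91.2 and 59.3. LanA and LanB2, laminin chains of the basement membrane, had 72.7 and 46.0, and 60.4 and 51.6. Col4a1, a collagen IV chain, had 71.5 and 43.5. The GATA factor gene srp, which defines the lineage, had 68.5 and 43.8 from a peak of 1962 and 1985 bp, and Hml (hemolectin) had 55.8 and 35.6. The phagocytosis receptor genes were low or absent: crq had 13.9 and 9.48 from a peak nearest to shv, eater had 9.01 and 3.77, and NimC1 had no start peak, nor did He (hemese). Of 6 lamellocyte or crystal cell markers Mmp1 (69.9 and 49.9), lz and, from a peak nearest to CG9890, PPO3 had one, and PPO1, PPO2 and atilla did not. The sex determination gene Sxl had a start peak with −log10 q of 72.9 and 34.9, which does not by itself tell the sex of the cells.

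Most markers of other cell types lacked a start peak in both lists, which 46.9% of all coding genes had. A start peak in both lists was present at 1 of 12 neuron markers, 3 of 11 muscle markers, 3 of 9 germline markers, 1 of 2 glia markers and 0 of 9 fat body markers. Fewer had no peak at all: 8 neuron, 8 muscle, 3 germline, 0 glia and 8 fat body markers. The neuronal gene elav had −log10 q of 18.0 and 14.6 from a peak nearest to lncRNA:enrr, and none of brp, nSyb, Syt1, para, VGlut, ChAT and Gad1 had a start peak. Mef2, a factor gene that is also used outside muscle, had 69.6 and 38.7, while Mhc, bt and Prm had none. In the germline list nanos and zpg drew on peaks nearest to CG11779 and Rexo5, and vas, osk and bam had no start peak. At a −log10 q of at least 5 the germline count was 1, the glia count 0 and the testis count 0, and a window of 1500 bp gave 2 neuron markers. The glial factor gene gcm, which acts in hemocytes too, had 4.65 and 6.45, and repo had a start peak in 1 list.

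Genes of the ecdysone response stood near the top. Of 16 members 13 had a start peak in both lists, with a median percentile rank of 14.3 against 46.4 of all coding genes, and 9 of the 13 were in the leading 20% of ranks, against 19.8% of all coding genes. Behind Eip75B, Eip78C had −log10 q of 74.4 and 52.4, Hr39 had 77.5 and 42.2, MsrA (Eip71CD) 55.7 and 52.0 and ftz-f1 47.4 and 39.3, and most of these genes encode nuclear receptors. The receptor gene EcR had 73.7 and 34.4, and its partner usp had 27.2 and 21.6 from a peak nearest to CG4313. The early gene br had 13.5 and 9.74. Eip93F, ImpE1 and ImpE2 had no start peak in either list. With canonical TSSs only, a setting added later, 9 of the 16 members had a start peak in both lists, against 13. Over all coding genes that setting gave 6191, against 6551. Group ranks were not computed with it.

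Heat shock genes carried strong and wide peaks in these cells, which the methods describe as kept at 25 °C. Of 26 members 16 had a start peak in both lists, with a median percentile rank of 22.8 and median widths of 2595 and 2391 bp. A peak shared by neighbours enters these medians once per gene, as that of Hsp22, Hsp26 and Hsp67Bc, 5578 and 5469 bp wide. Of the 16 peaks 4 were nearest to another start. The small heat shock gene Hsp27 had −log10 q of 97.5 and 76.4, rank 2 in mock replicate 2, and Hsp23 had 91.4 and 69.3. Hsp68 had 50.1 and 38.9 over 3184 and 3062 bp. The peaks of Hsp70Ba and Hsp70Bb were short in comparison, 719 and 420 bp, and 309 and 277 bp, with −log10 q of 25.5 and 15.1, and 51.2 and 24.6. These covered 13.5% and 12.7% of the body of Hsp70Ba and 13.2% and 11.8% of that of Hsp70Bb. Paused Pol II of uninduced Hsp70 is known to sit just downstream of the start. Hsp70Aa, Hsp70Ab, Hsp70Bbb and Hsp70Bc had none. The Hsp70 genes are near-identical copies and the authors removed reads that map to several places, so which copy holds Pol II is uncertain. The part of that filter in the missing peaks was not tested.

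Other families were nearly empty. No odorant receptor gene (0 of 60) had a start peak in both lists, nor any of 14 chorion and vitelline membrane genes, 14 antimicrobial peptide genes and 16 Jonah proteases, of which Jon25Bi had one in 1 list. Gustatory receptors had 2 of 60, ionotropic receptors 1 of 60, odorant-binding proteins 1 of 51, cuticle proteins 2 of 117 and seminal fluid proteins 2 of 47, all far under 46.9%. These small counts moved with the settings. A window of 1500 bp gave 5 odorant receptors, 6 gustatory receptors, 3 odorant-binding proteins and 4 seminal fluid proteins, and one of 250 bp gave 1 gustatory receptor, 1 cuticle protein and 0 ionotropic receptors and seminal fluid proteins. Several of these few came from a peak nearest to a neighbour: Gr97a from that of CG5521, Ir60b from Letm1, Cpr73D from Ogdh, Lcp9 from CG3594, and Sfp26Ad from Gpdh1, the glycerol-3-phosphate dehydrogenase gene with −log10 q of 89.3 and 52.7. Gr94a (30.2 and 27.9) and Obp44a (1.84 and 2.27) were nearest to their own peak. Cytochrome P450 genes were mixed. Of 83 members 17 had a start peak in both lists, 7 of them in the leading 20%, with Cyp4e2 (106 and 54.8), Cyp6a2 (87.1 and 47.7) and Cyp9c1 (66.1 and 39.1) first.

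Developmental regulators split in a similar way. Of 20 embryonic patterning genes 6 had a start peak in both lists. hry and the BMP antagonist gene sog (96.9 and 62.4) were among the strongest of all genes, while odd had 15.8 and 15.1, and Kr, dpp and eve were weaker still. No start peak was found at en, ftz, hb or twi, and hh and wg had one in 1 list. Of 8 Hox genes Abd-B (6.13 and 8.16) and Dfd (5.06 and 3.68) had one in both lists, and Antp, Scr, Ubx, abd-A, lab and pb had none. At a −log10 q of at least 5 the Hox count was 1. Actin genes gave Act5C (39.5 and 29.9) and Act42A (30.9 and 29.3), both cytoplasmic, and no start peak at Act57B, Act79B, Act87E and Act88F, which serve muscle. Of 11 tubulin genes 7 had one, with betaTub60D (83.0 and 49.7), betaTub56D (74.5 and 51.3) and betaTub97EF (70.1 and 45.4) first, and the testis gene betaTub85D had none.

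**Figure D4:**
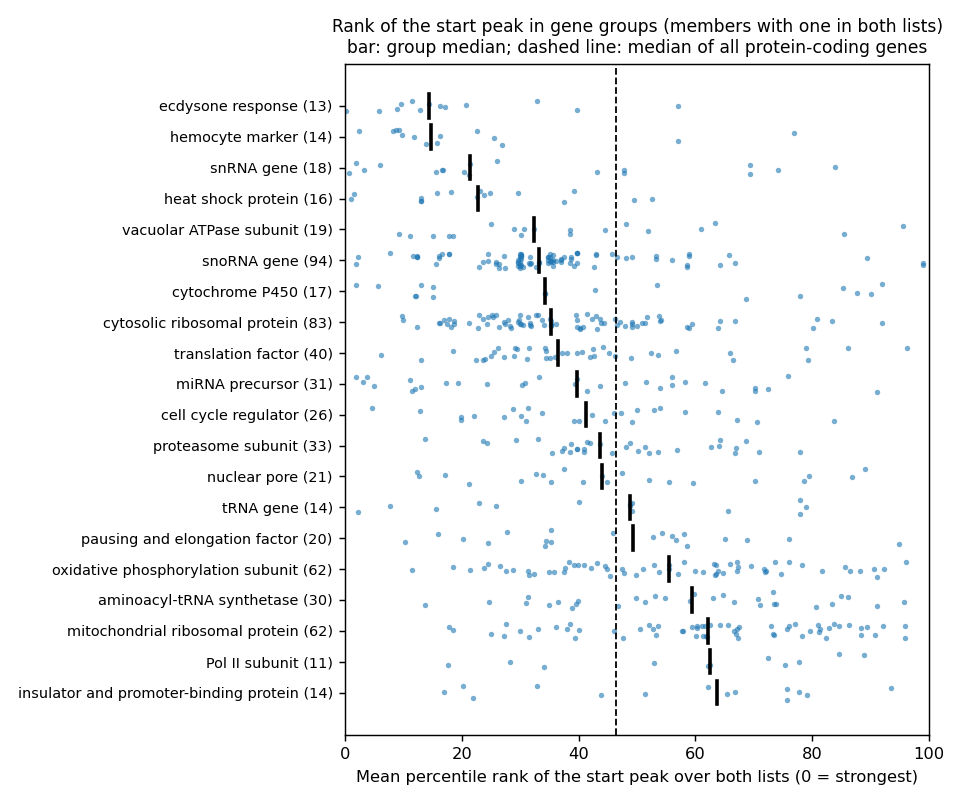
Each point is a gene with a start peak in both lists, placed by its mean percentile rank (0 is the strongest) for the 20 groups with at least 10 such genes. Black bars are group medians, from 14.3 for ecdysone response genes to 63.8 for insulator genes, and the dashed line is the 46.4 of all protein-coding genes.

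Small RNA genes are known to be transcribed by different polymerases. Of 26 snRNA genes other than U6, U6atac and 7SK, which are known to be made by Pol III, 18 had a start peak in both lists, against 0 of 6 of those Pol III genes. Over all 32 snRNA genes the share was 56.3%, against 46.9% of coding genes. The minor spliceosome gene snRNA:U11 led with −log10 q of 117 and 61.8, followed by snRNA:U12 with 96.2 and 58.9 and snRNA:LU with 89.9 and 54.5. Their peaks covered 100% of the RNA in both lists. The snRNA genes without one, such as snRNA:U2:14B, snRNA:U5:14B and snRNA:U5:23D, have near-identical copies, as do the U6 and 7SK genes, and the part of the mapping filter in either count was not tested. Of 290 tRNA genes, also Pol III genes, 14 (4.83%) had one, against 46.9% of coding genes, and 13 of these 14 drew on a peak nearest to another start. tRNA:Tyr-GTA-1-8 was first, with 117 and 52.2 from a peak nearest to CG8036, then tRNA:Glu-TTC-1-5 and tRNA:Leu-AAG-1-3. For tRNA genes the count depended on the window, with 7 at 250 bp and 40 at 1500 bp.

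Of 274 snoRNA genes 94 (34.3%) had a start peak in both lists, against 46.9% of coding genes and 12.1% of genes annotated as ncRNA. Of these 94 peaks 69 were nearest to another start. Many snoRNA genes lie inside host genes. snoRNA:Me18S-C1968 (115.3 and 53.6) and snoRNA:U3:9B (111 and 52.5) were first and were nearest to their own starts. Of 260 miRNA precursors 31 (11.9%) had one, close to the share of all genes annotated as ncRNA, 399 of 3289 (12.1%). Of the 31 peaks 25 were nearest to another start, such as mir-986 at Cyp4e2. mir-4985 (86.7 and 57.8) was nearest to its own and mir-282 drew on lncRNA:CR43626. At a window of 1500 bp the snoRNA and miRNA counts were 167 and 59. Of 111 copies of the core histone genes 1, His3:CG33866, had a start peak in both lists (8.15 and 2.99), and 3 had one in 1 list. The copies lie in a repeated cluster and are near identical, so the lists cannot show whether they hold Pol II. Of 6 single-copy variants 5 had one, with His2Av (33.1 and 28.1), His4r (38.3 and 21.3) and His3.3A (25.3 and 19.6) first. No annotated rRNA gene (0 of 99, interval 0 to 3.74%), made by Pol I and Pol III, had a start peak. These genes are repeated copies too, so the lists cannot show whether they hold Pol II.

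Promoter motifs differed along the order and between genes with and without a start peak. Promoters from 250 bp before to 50 bp after the canonical TSS of 13967 coding genes were searched on both strands. GAGAGAG was present in 16.6% of the leading quintile (interval 14.7 to 18.7), 7.10% of the next, 3.28%, 2.75% and 2.98% of the others, 5.90% of the genes without a start peak and 6.19% of all promoters. The leading quintile thus held the highest share. TATCGATA ran the other way, with 7.405% in the leading quintile, 14.7%, 20.2%, 18.2% and 16.9% in the following ones, 2.42% of the genes without a start peak and 8.94% of all. GGTCACAC was present in 11.5% to 17.3% of the quintiles, 1.12% of the genes without a start peak and 7.52% of all. Both housekeeping elements were thus scarce where no start peak was found. CAGCTG was most frequent in the last quintile, 31.5%, and in genes with a start peak in 1 list, 31.4%. It was present in 18.0% to 21.0% of the other quintiles, 13.01% of the genes without a start peak and 17.9% of all.

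TCAGT was present in 57.4% of the leading quintile, 44.0% to 45.1% of the others, 56.7% of the genes without a start peak and 51.8% of all. Restricted to the gene strand from 12 bp before to 13 bp after the TSS, a window chosen after the data had been seen, it was present in 23.4% of the leading quintile, 6.79% to 9.47% of the others, 16.2% without a start peak and 13.7% of all. TATAAA on both strands was less frequent in the leading quintile (39.2%) than in the last (49.5%) and was present in 45.3% of all promoters. On the gene strand from 40 to 16 bp before the TSS, also chosen later, its order turned: 5.19% in the leading quintile, 1.145% to 2.29% in the others, 13.1% without a start peak and 7.85% of all. The median GC content of these promoters was 41.7% in the leading quintile and 35.7% in the last, against 39.3% without a start peak, and a share of any motif moves with base composition. The part of GC content in these shares was not tested.

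**Figure D5:**
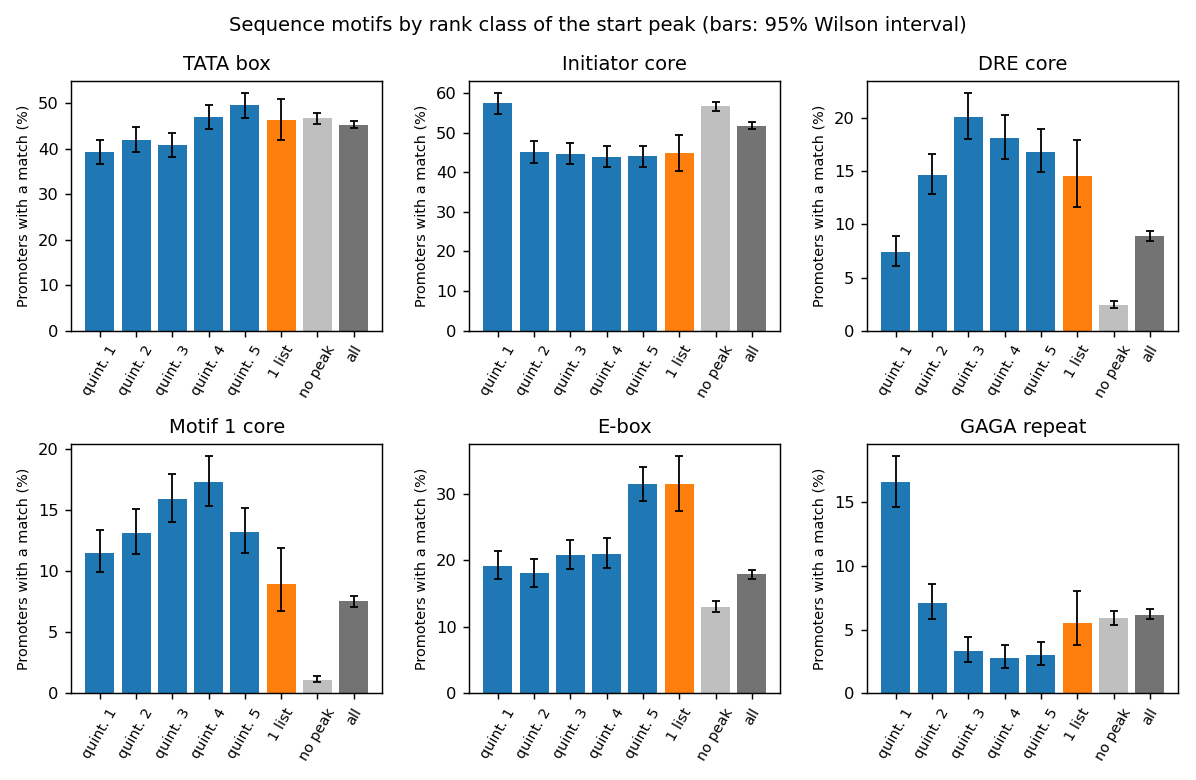
Percentage of promoters with a match on either strand (vertical axis, 95% Wilson intervals) for 6 motifs, by rank quintile of the start peak (blue), for genes with a start peak in 1 list (orange), with none (light grey) and for all (dark grey). The GAGA repeat is highest in the leading quintile at 16.6%, the DRE in quintile 3 at 20.2% and the E-box in the last at 31.5%. Genes with a start peak in 1 list have the E-box at 31.4%.

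Motif counts in single gene groups rest on few promoters and are given as counts. TATCGATA was present at 25 of 86 cytosolic (29.1%) and 15 of 73 mitochondrial ribosomal protein promoters (20.5%) and at 6 of 13 searched insulator gene promoters, against 8.94% of all. It was present at 0 of 16 hemocyte marker and 0 of 16 ecdysone response promoters, too few to set apart from that share. CAGCTG was present at 40 of 73 mitochondrial ribosomal protein promoters (54.8%) and 7 of 86 cytosolic ones (8.14%), against 17.9% of all. GGTCACAC was present at 17 of 87 promoters of oxidative phosphorylation (19.5%) and 6 of 27 cell cycle promoters, against 7.52% of all. GAGAGAG was present at 7 of 26 heat shock and 3 of 16 hemocyte marker promoters, against 6.19% of all. TATAAA was present at 21 of 26 heat shock promoters (80.8%), against 45.3% of all.

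The share of coding genes with a start peak in both lists varied between chromosomes. It was 53.9% on X (interval 51.8 to 55.9), 47.8% on 2R, 47.4% on 3R, 45.9% on 3L and 41.6% on 2L (39.7 to 43.5). On the largely heterochromatic chromosome 4 it was 26.3% of 80 genes (17.9 to 36.8), with a median percentile rank of 70.5 and 0 genes in the leading quintile. None of 23 coding genes of the Y chromosome had one (0 to 14.3%), in a line of female origin, although mock replicate 1 held 2 weak peaks on Y, near CG45766 (−log10 q 8.78) and CR45780 (7.29), and mock replicate 2 held 0.

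Long stretches of the main arms held no peak in either list. Of those above 100 kb there were 266, covering 47.1 Mb with 1996 coding genes. The longest, chr3R:2089218-3344776, measured 1256 kb with Pzl as its only coding gene, and the next, chr3R:846475-1824888, had none. On X a stretch of 596 kb at chrX:21836739-22432951 held 21 coding genes, among them CG46512, CG46511 and CG46515, but 10.8% of its bases are unknown in the genome, where no read can map, against at most 0.972% in the other 4 longest. On 2R stretches of 517 and 476 kb held CG41520 and MFS17. The authors also removed reads that map to several places. The repeat content of these stretches was not examined, so a lack of peaks need not mean a lack of Pol II. Of the stretches 19 held at least 20 coding genes, a limit set after the values had been seen. The one with the most, 42 coding genes over 337 kb at chr3R:6008697-6345391, held the cluster of Osi genes (membrane proteins of cuticle-forming cells), including Osi17, Osi24 and Osi2. Others held beat-Ia and beat-Ic, which act in axon guidance, and ProtA, a sperm chromatin protein.

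Some genes had a strong start peak in 1 list only, mostly through a neighbour whose start had a peak in both lists. In mock replicate 1 CG7656 led with rank 334, from a peak nearest to RhoGAP71E that was 1253 bp wide in mock replicate 1 and 568 bp in mock replicate 2. Mks1 (627) drew on the peak of mdu, CG32100 (784) on that of app, which was 1428 and 617 bp wide, and sei (1910) on that of tsr (cofilin), 2023 and 530 bp wide. His2A:CG33865 and His2B:CG33868 shared a peak of rank 3233, and w (1230) had its own. In mock replicate 2 Nepl20 led with rank 40, from the peak of Nepl19, followed by CG31174 (1330, nearest to CG31431) and CG15892 (3115, nearest to CG15891). Of these 10 genes w and His2B:CG33868 were nearest to their peak.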

How the data were processed

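Kc167 chromatin was immunoprecipitated with 8WG16, and the deposited peak lists of both mock libraries were analysed. The 4 knockdown lists were not used. According to the methods, the authors trimmed reads with cutadapt, aligned them to dm6 with bowtie2, removed multimapping reads and duplicates, and called broad peaks per replicate against paired input with MACS2 (2.1.1.20160309 in the submitters' processing notes). The deposited columns hold a score, a fold enrichment (ratio over background), −log10 p and −log10 q, each a mean over the peak. The score and −log10 p were not used. Read depth is unknown, so precision is limited by the 2 libraries.

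Python 3.11.15 with pandas 2.3.3 and scipy 1.17.1 was used. Overlap meant at least 1 bp, and a start peak one within 500 bp of any Ensembl 115 TSS of the gene, the best by −log10 q. Coordinates count from 1 on dm6. Motifs used Ensembl canonical TSSs and RefSeq Release 6 sequence, and mod(mdg4), which has no canonical TSS, was left out of them. Of listed symbols 10 were matched through older names, 2 could not be matched, and 3 pattern matches of other families were removed. Overlap, rank and motif counts were tested on simulated data. Alternatives were a −log10 q of at least 5, equal list lengths, other windows and overlaps, fold ranking and leaving out each replicate.

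Members, gene lists and rules were chosen with earlier results of these data known. Named were genes at the 25 leading and 10 widest regions, the 3 best-ranked members of each list with up to 3 exceptions, up to 3 genes of the 5 longest peak-free stretches, and the 10 best-ranked genes with a start peak in 1 list. Further members were named after their values had been seen.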

Additional observations from a re-analysis of the deposited data

How the results depend on the processing

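The counts of shared regions (4316 to 5318) and of coding genes with a start peak (5448 to 7125) stayed within 1.5 times of the reported ones under all alternatives run, and 19 or 20 gene groups lay above the share of all coding genes. Group median ranks were less stable. Ranked by fold enrichment, 20 medians moved beyond the spread between the replicates and 17 did not. Without mock replicate 1 these counts were 12 and 25, and without mock replicate 2 they were 11 and 26. By fold enrichment the median was 35.4 for embryonic patterning genes, against 51.3, and 20.0 for hemocyte markers, against 14.7. Requiring 50% overlap of both peaks lowered the overlapped share to 80.8% of mock replicate 1 and 86.0% of mock replicate 2. A −log10 q of at least 5 gave a Jaccard index (shared over joint bases) of 0.716, a rho of 0.934, a promoter share of 97.0% and a median width of 603 bp. The Jaccard index was 0.735 with lists of equal length, 0.734 with peaks within 1000 bp joined and 0.726 on the main arms, and rho was 0.951 with 50% overlap and 0.869 by fold enrichment. Midpoints gave a promoter share of 92.1%. Without 1 replicate, the promoter share was 91.5% to 93.5% and the median width 481 to 540 bp. In a window of 100 bp before to 50 bp after the TSS, shares in the leading quintile were 15.0% for TATAAA, 44.3% for TCAGT, 5.65% for TATCGATA, 9.31% for GGTCACAC, 12.3% for CAGCTG and 10.2% for GAGAGAG. The shares of all promoters in that window were, in the same order, 23.7%, 37.6%, 7.28%, 6.37%, 12.1% and 3.44%. On the gene strand near the TSS, chosen after seeing the data, shares in the leading quintile were 5.19% for TATAAA and 23.4% for TCAGT. Canonical TSSs only, added later, gave 6191 coding genes. No paired analysis was possible because there is 1 group and no test. The lists give no read depth, and near-identical copies and shared start peaks limit what single genes show.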
